A study of Homo sapiens with 13 samples.

Results

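The vehicle libraries were the baseline of the series, 4 of its 13 RNA sequencing libraries. They were chosen by treatment alone, as the libraries of cells kept for 48 h in 0.1% DMSO, and all 60591 genes of the deposited count table were described in them. The other 9 libraries, from cells given chloroquine, 5-fluorouracil or both, entered no comparison here. The labels name the cells TE11, a human line of squamous cell carcinoma of the esophagus, grown by all groups in DMEM with 10% fetal bovine serum and antibiotics. Total RNA was sequenced from a directional library kit. The labels do not state whether the 4 replicates were separate cultures, so the spreads given after ± (SD, n = 4) measure these samples and may be technical. The 4 libraries form 1 group, so no test was made, and genes are described by their level, their spread and whether their values overlap.

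A squamous epithelium is a layered sheet whose dividing basal cells carry the keratins KRT5 and KRT14 and the transcription factor TP63, and whose upper cells switch to KRT4, KRT13 and cornified envelope proteins such as involucrin (IVL). Simple epithelia are built instead on the keratin pair KRT8 and KRT18 with E-cadherin (CDH1), mesenchymal cells on vimentin (VIM) and N-cadherin (CDH2), and neurons on neurofilaments such as NEFL and internexin (INA). These structural genes, and the transcription factors above them, are the usual means of telling which tissue a cultured line resembles.

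The labelled cell type and its markers did not match. Of 8 markers of squamous carcinoma (KRT5, KRT14, TP63, COL17A1, DSG3, KRT13, KRT4 and IVL), none exceeded 3 counts in replicates 1 to 3. The libraries are therefore called by their label and their leading genes, and no other cell type is named. Replicate 4 stood apart, since it also held transcripts of other tissues at low level, so absence was judged in replicates 1 to 3 and the value of replicate 4 is given beside it. Throughout, a gene is called expressed at 1 CPM (counts divided by the library total and scaled to 1000000) or more in each of replicates 1 to 3. It is called near background at 10 counts or fewer in each of them.

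Promoters of 5 of the 9 leading marker genes and of 6 of the 8 squamous markers were examined. They came from the RefSeq promoter table (GRCh38.p14, 300 bases, from 250 before to 50 after the start). Only the first entry of each gene symbol was kept, so promoters at other starts of a gene were not examined. Promoters of the other markers were not examined, and their absence here does not mean that the table lacks them. Of those examined, 4 are shown as examples of strongly expressed and of undetected marker genes. RSPO1 (chr1:37634843-37635142, minus strand) had the highest level of the 5, and VIM (chr10:17227991-17228290, plus strand) had the fewest CG among them. KRT5 (chr12:52520345-52520644, minus strand) and IVL (chr1:152908296-152908595, plus strand) are squamous genes without a count in replicates 1 to 3. The 4 were picked after their values were seen. Capitals mark the dinucleotide CG and the motif TATAAA on either strand.
RSPO1: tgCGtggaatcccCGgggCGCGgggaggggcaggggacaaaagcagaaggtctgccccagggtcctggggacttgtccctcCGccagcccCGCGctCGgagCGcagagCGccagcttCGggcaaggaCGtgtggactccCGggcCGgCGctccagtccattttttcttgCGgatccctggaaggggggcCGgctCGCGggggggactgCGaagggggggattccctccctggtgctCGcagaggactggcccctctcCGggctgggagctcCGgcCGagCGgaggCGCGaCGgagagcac
VIM: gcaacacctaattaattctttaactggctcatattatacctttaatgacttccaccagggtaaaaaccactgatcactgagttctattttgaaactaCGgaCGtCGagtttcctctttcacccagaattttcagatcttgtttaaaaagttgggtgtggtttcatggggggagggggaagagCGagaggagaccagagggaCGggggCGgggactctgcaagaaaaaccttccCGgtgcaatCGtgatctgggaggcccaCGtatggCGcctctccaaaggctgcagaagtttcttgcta
KRT5: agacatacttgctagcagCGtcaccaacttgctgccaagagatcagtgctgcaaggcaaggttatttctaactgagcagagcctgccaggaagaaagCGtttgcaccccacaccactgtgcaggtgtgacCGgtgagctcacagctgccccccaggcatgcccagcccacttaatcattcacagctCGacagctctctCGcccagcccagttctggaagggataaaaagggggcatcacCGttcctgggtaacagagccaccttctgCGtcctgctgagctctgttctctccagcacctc
IVL: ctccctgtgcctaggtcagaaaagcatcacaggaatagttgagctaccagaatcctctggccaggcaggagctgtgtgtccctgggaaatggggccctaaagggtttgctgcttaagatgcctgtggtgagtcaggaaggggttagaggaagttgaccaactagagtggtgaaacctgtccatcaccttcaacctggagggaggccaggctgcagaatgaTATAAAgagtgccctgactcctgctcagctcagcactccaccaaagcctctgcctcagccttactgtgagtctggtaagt
The window of RSPO1 held 28 CG, that of LIN28B 37, that of INA 35, that of CDH2 23 and that of VIM 10. The windows of the squamous marker genes held 7 (KRT5), 7 (TP63), 6 (DSG3), 5 (KRT4), 1 (COL17A1) and 0 (IVL). Over all 27195 promoters of the table the median was 14.0, with quartiles of 3.00 and 28.0. TATAAA occurred in 12% of them, and among the 11 named here in those of TP63, COL17A1 and IVL. The windows of the expressed genes HOXA10 and HOXD13 held it too. Of expressed protein-coding genes 81.0% had an entry, with a median of 27.0 CG and TATAAA in 5.12%. Of those near background only 67.6% had one, so the sets were not compared. The counts describe letters in these windows and say nothing about which factors bound them.

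Library totals ran from 18927168 to 22089671 counts. A count of 0 in 1 library therefore allowed up to 3 counts, or 0.136 to 0.159 CPM (counting error only), and the limit of 10 counts corresponded to 0.453 to 0.528 CPM. Over all genes, 14622 (24.1%) were expressed and 43122 (71.2%) were near background, and 29413 had no count in replicates 1 to 3. Of the 19836 protein-coding genes 12102 (61.0%) were expressed and 6704 (33.8%) were near background. The median coefficient of variation of expressed genes was 4.65% over replicates 1 to 3 and 5.75% with replicate 4. Mitochondrially encoded genes took 1.72 ± 0.121% of counts and pseudogenes 6.91 ± 0.0580%. Outside the mitochondrial genes the most abundant symbols were EEF1A1P5 (4625 ± 133 CPM), the translation elongation factor gene EEF2 (3664 ± 144 CPM) and the chaperone gene HSP90AA1 (3434 ± 130 CPM). EEF1A1P5 is a processed pseudogene of EEF1A1, which itself stood at 2180 ± 147 CPM. How the counting divided reads of these near-identical sequences is not known, so both values are uncertain. Together 39 pseudogene symbols of EEF1A1 held 124710 to 140009 counts in a library, more than EEF1A1 itself.

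The 9 leading marker genes were all expressed in every vehicle library and come from the mesenchymal, neuronal, oncofetal, simple epithelial and carbonic anhydrase lists and from 2 secreted protein families. NOG encodes Noggin, a secreted protein that binds bone morphogenetic proteins and keeps them from their receptors. It had 1594, 1649, 1746 and 2003 CPM in replicates 1 to 4. Replicate 4 was the highest, 1.20 times the mean of the others, and every library held at least 31205 counts of it, so counting error was small against the spread. Per kb of exon, NOG stood at 924 ± 95.8 CPM and ranked 11 among 19836 protein-coding genes. RSPO1 encodes R-spondin 1, a secreted protein that strengthens WNT signalling through LGR receptors. Its level was 783, 732, 826 and 903 CPM, again highest in replicate 4, and its level per kb (263 ± 23.5 CPM) ranked 82.

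VIM, the intermediate filament of mesenchymal cells, had 659, 646, 656 and 662 CPM, a spread of 1.06% of its mean. CA2, a cytosolic carbonic anhydrase that interconverts carbon dioxide and bicarbonate, had 663, 656, 648 and 643 CPM. Both were therefore steady across the 4 libraries. Per kb, CA2 (307 ± 4.22 CPM, rank 59) stood above VIM (127 ± 1.35 CPM, rank 210) without overlap. CDH2, the N-cadherin of neural and mesenchymal junctions, had 149, 148, 154 and 154 CPM. NEFL, the neurofilament light chain, had 123, 130, 124 and 128 CPM and INA 119, 123, 125 and 130 CPM. Per kb, INA was 1.32 times NEFL, a difference in which the 4 values of each gene did not overlap. LIN28B, an RNA-binding protein that blocks maturation of let-7 microRNAs and is usually silent in adult tissue, had 89.3, 95.4, 94.8 and 96.8 CPM. KRT18, a keratin of simple epithelia, was the lowest of the 9 per kb (12.7 ± 0.406 CPM), with 39.7, 39.9, 42.2 and 42.0 CPM.

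**Figure D1:**
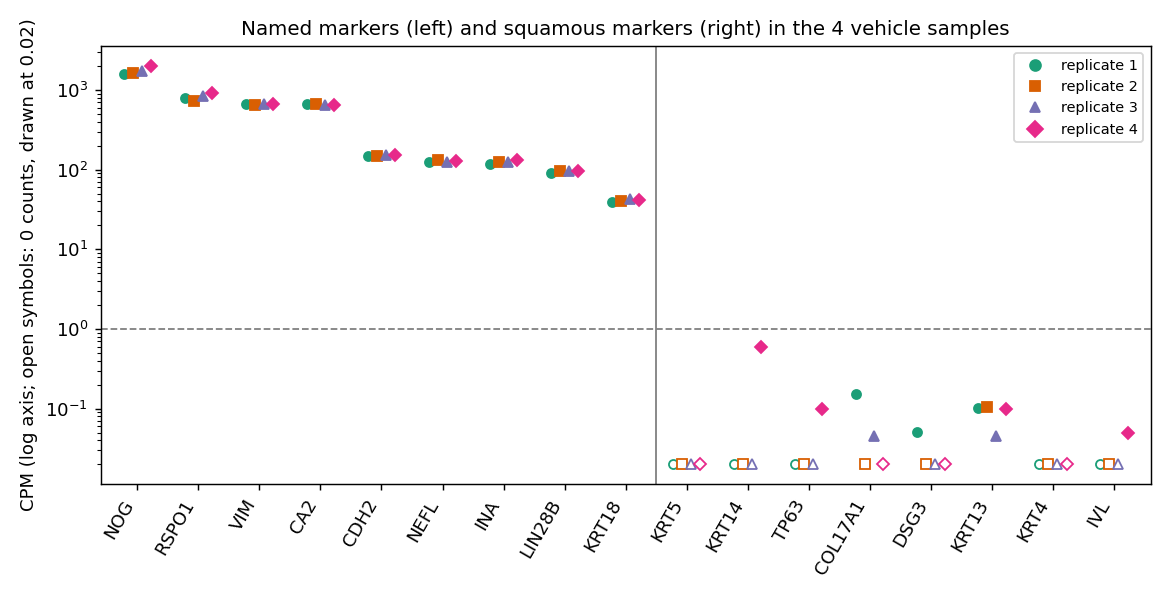
Level of each of the 9 leading marker genes and of the 8 markers of the labelled squamous type in the 4 vehicle libraries, in CPM on a logarithmic axis, with 1 point per library, open points for a count of 0 and a dashed line at 1 CPM. The means of the 9 leading genes run from 1748 CPM (NOG) to 41.0 CPM (KRT18), and all squamous points lie under the line, with KRT14 in replicate 4 (0.585 CPM) the highest of them.

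The squamous genes were almost all absent. KRT5 and KRT4 had 0 counts in all 4 libraries. KRT14 had 0, 0, 0 and 12 counts and TP63 0, 0, 0 and 2, so that the few counts of both lay in replicate 4. COL17A1, a collagen of the hemidesmosome, had 3, 0, 1 and 0 counts, and the desmosomal cadherin gene DSG3 had 1, 0, 0 and 0. KRT13 had 2, 2, 1 and 2 counts and IVL 0, 0, 0 and 1. Of the 29 squamous differentiation genes 2 were expressed, 25 were near background and 18 had no count in replicates 1 to 3, against 61.0% expressed and 33.8% near background over protein-coding genes. The 2 were KRT10, a keratin of cornifying layers (21.7 ± 2.48 CPM), and CNFN, a cornified envelope gene (2.05 ± 0.344 CPM). In bulk RNA, fewer cells of a type and less RNA per cell cannot be told apart.

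Of 17 genes of basal squamous epithelium 5 (29.4%) were expressed and 10 (58.8%) were near background, beside 61.0% and 33.8% of protein-coding genes. PERP, a desmosome-associated membrane protein, stood at 127 ± 1.43 CPM. The desmosomal cadherin gene DSC3 stood at 113 ± 2.94 CPM and the laminin receptor subunit gene ITGA6 at 39.1 ± 1.51 CPM. ITGB4, the partner of ITGA6 in hemidesmosomes, was at 1.79 ± 0.177 CPM. Per kb, ITGA6 was 22.6 times ITGB4 with no overlap, and ITGB1, the other partner of ITGA6, stood at 142 ± 8.51 CPM. The laminin subunit gene LAMB3 had 10, 8, 7 and 6 counts, on the edge of the limit of 10.

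Of 25 simple epithelium genes 11 (44.0%) were expressed and 13 (52.0%) were near background, beside 61.0% and 33.8% of protein-coding genes. The plaque genes DSP (desmoplakin, 164 ± 9.91 CPM), JUP (plakoglobin, 63.0 ± 1.92 CPM) and PKP2 (plakophilin 2, 47.5 ± 1.62 CPM) were all expressed. KRT8, the obligate partner of KRT18, had only 61, 55, 65 and 54 counts, or 2.90 ± 0.194 CPM. Per kb, KRT18 was 30.3 times KRT8 (log2 ratio 4.92), and the 2 genes did not overlap. With the length of the longest transcript in place of the exon union the log2 ratio was 4.28. Both keratins have many pseudogenes that can take their reads: 51 pseudogene symbols of KRT8 held 83 to 206 counts together in a library, more than KRT8 itself, and 67 of KRT18 held 108 to 163, so the ratio is uncertain. The E-cadherin gene CDH1 (2.48 ± 0.398 CPM) and the adhesion gene EPCAM (1.91 ± 0.431 CPM) were just above the threshold. KRT19 had 0, 0, 0 and 3 counts, KRT7 0, 0, 0 and 4, and the tight junction gene CLDN4 5, 1, 3 and 3.

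Of 22 mesenchymal genes 5 (22.7%) were near background, beside 33.8% of all protein-coding genes. The 13 that were expressed (59.1%) made up a share close to that of all protein-coding genes (61.0%). Beside VIM and CDH2 they held the transcriptional repressors of E-cadherin ZEB1 (37.0 ± 4.03 CPM) and ZEB2 (36.0 ± 3.87 CPM), the factor gene TWIST1 (21.3 ± 1.41 CPM) and the matrix gene FN1, fibronectin (35.8 ± 3.35 CPM). Per kb, CDH2 was 76.3 times CDH1 and VIM was 9.99 times KRT18, and neither pair overlapped. SPARC, a secreted matrix glycoprotein, had 3, 1, 2 and 516 counts and CDH11, a mesenchymal cadherin, 0, 0, 1 and 100. These 2 were near background in replicates 1 to 3 and high in replicate 4 only, and with the limit applied to all 4 libraries 1 mesenchymal gene in place of 5 was near background. Of 19 classical cadherins 4 (21.1%) were expressed, namely CDH2, CDH24, CDH1 and CDH22. The receptor gene CD44 was between the limits, with 12, 6, 14 and 13 counts.

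Neuronal genes were expressed at a share close to that of all protein-coding genes: 17 of 26, with 6 near background. UCHL1, a ubiquitin hydrolase abundant in neurons, had 337, 327, 327 and 303 CPM and ranked 182 per kb. The third neurofilament gene measured, NEFM, stood at 78.6 ± 3.06 CPM, and per kb NEFL was 1.62 times NEFM. Synaptophysin (SYP, a synaptic vesicle protein) stood at 52.7 ± 1.51 CPM and the glycolytic enzyme gene ENO2 at 50.5 ± 1.14 CPM. Other members were close to absent. The microtubule regulator genes STMN2 (1, 0, 2 and 16 counts) and DCX (0, 2, 0 and 2 counts) and the vesicle fusion gene SNAP25 (1, 0, 1 and 5 counts) were near background. TUBB3, neuronal tubulin, was at 2.29 ± 0.534 CPM. Of 21 glial and neural crest genes 7 (33.3%) were expressed, beside 61.0% of all protein-coding genes. Among the 7 were the oligodendrocyte factor gene OLIG2 (4.72 ± 0.351 CPM) and MITF (22.0 ± 0.766 CPM). SOX10 had 0, 2, 0 and 4 counts and S100B had none.

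Genes of the embryonic and oncofetal list fell into 2 sets. The fetal RNA-binding protein genes IGF2BP1 (274 ± 3.07 CPM), IGF2BP2 (74.0 ± 2.46 CPM) and IGF2BP3 (49.5 ± 4.66 CPM), the chromatin architecture genes HMGA1 (200 ± 4.87 CPM) and HMGA2 (116 ± 8.83 CPM), the glypican gene GPC3 (66.4 ± 2.98 CPM) and LIN28B were expressed. The pluripotency genes were not: NANOG had no count in any library, POU5F1 had 2, 4, 5 and 5 counts, SALL4 2, 2, 3 and 5, and LIN28A, the paralogue of LIN28B, 3, 0, 0 and 0. In all 11 of 27 members (40.7%) were expressed and 15 (55.6%) were near background, beside 61.0% and 33.8% of protein-coding genes. The telomerase gene TERT was low but expressed, at 3.72 ± 0.231 CPM. The imprinted genes IGF2 (5, 6, 2 and 12 counts) and H19 (1, 0, 2 and 33 counts) were near background in replicates 1 to 3. Alpha-fetoprotein (AFP) had no count in any library.

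Of 23 kidney genes 8 (34.8%) were expressed, beside 61.0% of all protein-coding genes. SIX2 had 40.4, 34.8, 38.4 and 36.2 CPM, SALL1 30.5 ± 1.96 CPM and EYA1 28.0 ± 0.543 CPM. All of them act in embryonic kidney and in other embryonic organs. PAX2 stood at 3.72 ± 0.426 CPM and WT1 at 5.88 ± 0.253 CPM. PAX8 had no count in any library. Per kb, PAX2 was on average 30 times the level that 3 counts of PAX8 per library would give. The endocytic receptor gene LRP2 (25.1 ± 1.26 CPM) was the 1 gene of the mature tubule that was expressed. UMOD and SLC34A1 had no counts, and 13 members in all (56.5%) were near background, beside 33.8% of all protein-coding genes.

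Gut, liver and blood genes were close to absent, while 61.0% of all protein-coding genes were expressed and 33.8% were near background. None of 13 liver genes was expressed, and albumin (ALB) had 0, 0, 0 and 1 counts. Of 17 genes of columnar gut and stomach 16 were near background, 11 of them without a count in replicates 1 to 3. The exception was CDX2, a homeobox factor of the intestine, with 42.4, 39.2, 39.2 and 40.4 CPM. Its paralogue CDX1 and the genes VIL1 and MUC2, which are active in gut epithelium, had no count in any library. Of 17 leukocyte genes 16 were near background, and PTPRC, the pan-leukocyte antigen CD45, had 0, 0, 0 and 31 counts. With replicate 4 included, 8 leukocyte genes were near background. None of 11 erythroid and 2 of 11 endothelial genes (FLT1 and ESAM) were expressed. PECAM1 and CDH5, which define endothelium, had no counts.

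**Figure D2:**
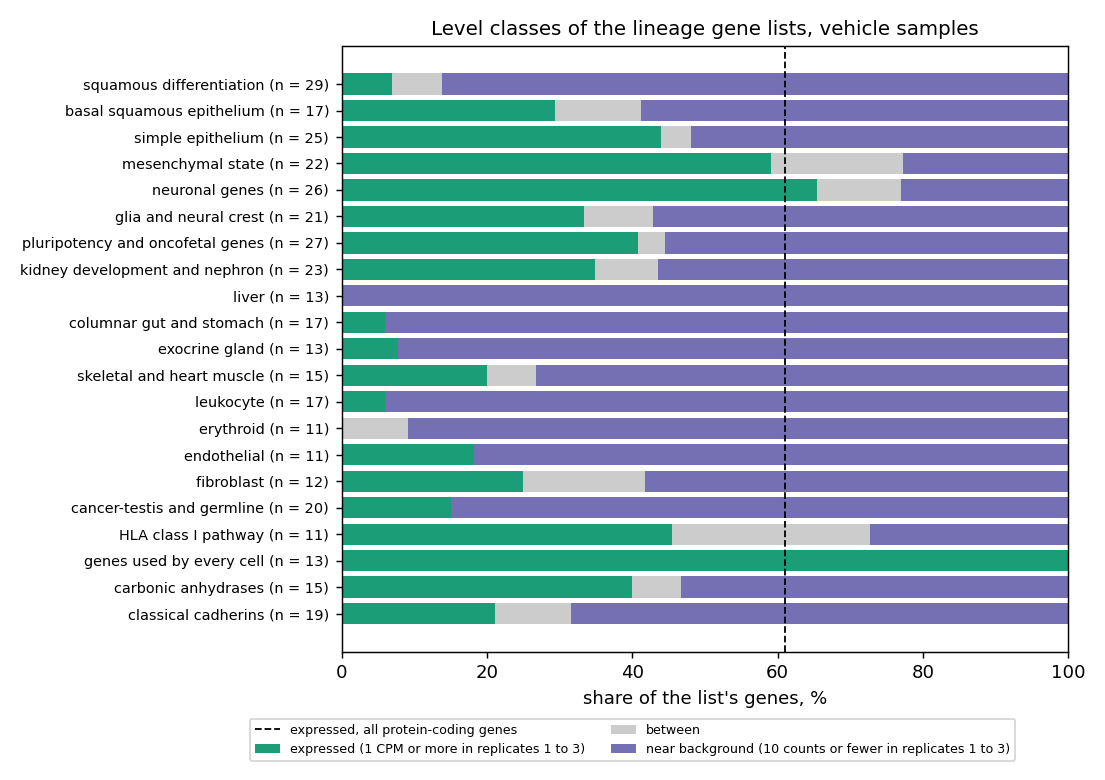
Share of the members of each lineage list that were expressed, between the limits or near background in vehicle replicates 1 to 3, in percent, with the number of members beside each list and a dashed line at the share of all protein-coding genes that were expressed (61.0%). Genes used by every cell (13 of 13) and neuronal genes (17 of 26) lie at the expressed end, and liver, erythroid and columnar gut genes at the other.

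Of 11 genes of the HLA class I pathway 5 (45.5%) were expressed and 3 (27.3%) were near background, beside 61.0% and 33.8% of protein-coding genes. B2M, the light chain of HLA class I, stood at 180 ± 4.10 CPM, HLA-C at 76.0 ± 2.39 CPM and HLA-B at 46.4 ± 0.372 CPM. The HLA genes are near-identical copies that vary between people, and their counts are uncertain. PSMB8, an immunoproteasome subunit, had no count, and the peptide transporter gene TAP1 had 8, 8, 6 and 4. Of 20 cancer-testis genes 3 (15.0%) were expressed: PRAME (8.01 ± 0.802 CPM), MAGEA6 (3.93 ± 0.272 CPM) and MAGEA3 (1.40 ± 0.276 CPM). The 2 MAGEA genes are near-identical and their split is uncertain. Of 15 carbonic anhydrases 6 were expressed, and CA2 per kb was 609 times CA12 (70, 69, 85 and 76 counts). CA9, a gene induced by hypoxia in many tumours, had no count.

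Of 306 listed transcription factors 209 (68.3%) were expressed, beside 61.0% of protein-coding genes and 30.7% of the 371 genes in the lineage lists. The HOX genes, which give body segments their identity along the head to tail axis, were active in all 4 clusters. Of 39 HOX genes 34 were expressed, namely 11 of 11 in cluster A, 9 of 10 in B, 7 of 9 in C and 7 of 9 in D. HOXB9 led them, with 318, 338, 341 and 328 CPM, and per kb (128 ± 4.01 CPM) it was above all other listed factors without overlap. HOXD13 had 177, 168, 177 and 170 CPM and HOXA5 114, 111, 113 and 111 CPM. The last genes of the clusters, HOXA13 (53.3 ± 1.87 CPM), HOXB13 (22.4 ± 0.762 CPM), HOXC13 (27.9 ± 2.29 CPM) and HOXD13, were all expressed. The 3 genes near background were HOXB1 with no count, HOXD1 with 3, 4, 2 and 5 counts and HOXC5 with 8, 7, 8 and 6. HOXC12 and HOXD12 lay between the limits.

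Per kb the order among the listed factors after HOXB9 was FOXC1 (96.1 ± 3.37 CPM), HOXD13 (77.3 ± 2.16 CPM), HOXA5 (65.8 ± 0.916 CPM), ZIC2 (42.2 ± 2.21 CPM) and HEY1 (42.1 ± 1.43 CPM). Each of the first 4 factors was separated from the next without overlap, while from ZIC2 to the twelfth, NR2F2 (33.8 ± 0.302 CPM), every neighbour overlapped. FOXC1 is a forkhead factor of mesoderm and neural crest derivatives and had 391, 364, 386 and 368 CPM. ZIC2, a zinc finger factor of the early neural plate, had 149, 131, 138 and 141 CPM. HEY1 is a target of Notch signalling and NR2F2 an orphan nuclear receptor of mesenchyme and veins. Neural factors were also present, among them POU4F1 of sensory neurons (91.7 ± 1.26 CPM), ISL1 of motor neurons (20.3, 18.3, 20.1 and 21.3 CPM) and PAX6 of eye and brain (29.1 ± 2.87 CPM). The proneural gene NEUROD1 (4, 3, 4 and 5 counts) was near background.

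Of 26 factors of epithelial fate 17 (65.4%) were expressed and 8 (30.8%) were near background. These shares were close to those of all protein-coding genes (61.0% and 33.8%). TFAP2A, a factor of surface ectoderm and neural crest, stood at 74.5 ± 3.29 CPM, KLF5 of basal epithelium at 40.5 ± 2.81 CPM and the homeobox gene BARX2 at 36.1, 34.9, 34.9 and 32.5 CPM. GRHL2, which sustains E-cadherin and tight junction genes, had 0, 1, 1 and 1 counts. OVOL1 and EHF had no count, and ZNF750, a driver of squamous differentiation, had 1, 0, 3 and 0. SOX2, a factor amplified in many esophageal squamous tumours, was expressed at 15.8 ± 0.429 CPM. SOX4 (192 ± 17.7 CPM) and SOX12 (125 ± 3.09 CPM) stood above it per kb.

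GATA6 (60.7 ± 2.04 CPM), GATA4 (25.4 ± 2.39 CPM), GATA2 (21.7 ± 1.20 CPM) and GATA3 (5.68 ± 0.725 CPM) were expressed, and GATA1, the erythroid member, had 1, 0, 2 and 0 counts. Per kb, GATA2 was 2.94 times GATA3 and they did not overlap. Among T-box factors TBX3 (86.9 ± 3.08 CPM) and TBX1 (57.0 ± 3.62 CPM) were expressed, and TBXT, the mesoderm factor brachyury, had no count. Of 48 nuclear receptors 33 (68.8%) were expressed, a share close to that of all protein-coding genes (61.0%). NR2F1 stood at 133 ± 3.56 CPM and the glucocorticoid receptor gene NR3C1 at 56.7 ± 4.52 CPM. The estrogen receptor gene ESR1 had 0, 1, 2 and 6 counts.

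**Figure D3:**
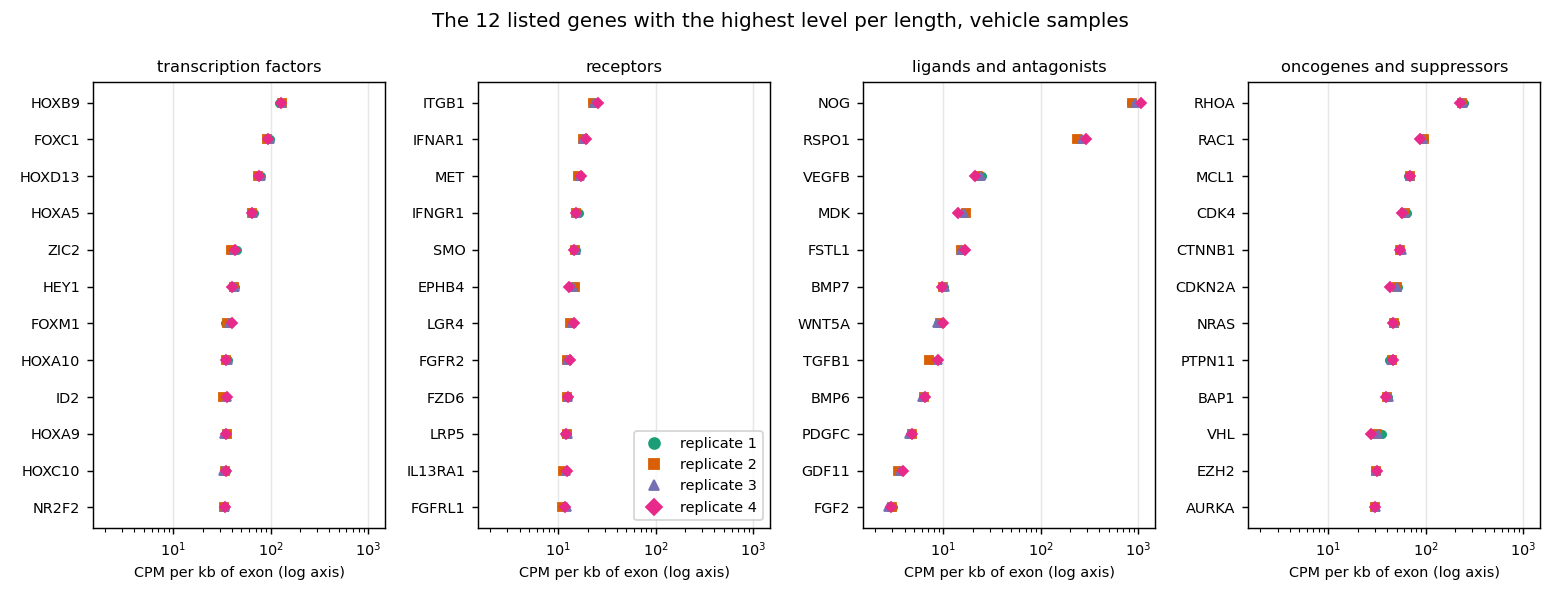
The 12 factors, receptors, ligands and cancer genes with the highest levels per length, in CPM per kb of exon on a logarithmic axis shared by the panels, with 1 point per vehicle library. NOG (924 ± 95.8) and RSPO1 (263 ± 23.5) stand far to the right of the other ligands, and the receptors lie within a narrow range from 23.6 (ITGB1) to 11.6 (FGFRL1).

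Of 160 listed receptor genes 109 (68.1%) were expressed, a share close to that of all protein-coding genes (61.0%). Per kb ITGB1, the common beta chain of matrix-binding integrins, was highest (23.6 ± 1.42 CPM), followed by the interferon receptor subunit gene IFNAR1 (18.4 ± 0.649 CPM) and the hepatocyte growth factor receptor gene MET (16.4 ± 0.597 CPM). ITGB1 and IFNAR1 were each separated from the next gene, and from MET to FGFRL1 all neighbours overlapped. MET had 111, 112, 118 and 120 CPM. Its ligand gene HGF was near background, with 1, 2, 3 and 6 counts. ITGB6, an epithelial integrin chain, had no count in any library.

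All 4 ERBB and all 5 FGF receptor genes were expressed. EGFR, a receptor often raised in squamous carcinoma, had 7.93, 8.61, 9.60 and 9.80 CPM and ERBB2 49.0, 48.2, 46.9 and 46.7 CPM. Per kb, ERBB2 was 6.44 times EGFR (log2 ratio of EGFR to ERBB2 -2.69), and with the longest transcript the log2 ratio was -3.41. FGFR2 had 91.7, 92.8, 93.8 and 101 CPM and was 2.29 times FGFR1 per kb without overlap. IGF1R, the insulin-like growth factor receptor, stood at 74.5 ± 1.78 CPM and KIT, the stem cell factor receptor, at 11.6 ± 0.714 CPM. Of 32 other receptor tyrosine kinases 17 (53.1%) were expressed and 12 (37.5%) were near background, beside 61.0% and 33.8% of protein-coding genes. Among the 12 were ALK (0, 2, 0 and 1 counts) and AXL (1, 1, 2 and 13 counts).

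Of 14 ephrin receptors 12 (85.7%) were expressed, beside 61.0% of all protein-coding genes. EPHB4 led them per kb (13.8 ± 0.790 CPM). LGR4, which binds R-spondins, stood at 86.3 ± 3.93 CPM, and the ubiquitin ligase gene ZNRF3, on which R-spondins act, at 42.2 ± 1.11 CPM. LGR5 was at 3.22 ± 0.503 CPM and LGR6 had 2, 2, 3 and 1 counts. BMPR1A, a receptor for the proteins that Noggin binds, stood at 54.4 ± 1.77 CPM. In all 12 of 15 TGF-beta and BMP receptor genes (80.0%) were expressed. SMO, the hedgehog signal transducer, stood at 64.2 ± 1.16 CPM, while the ligand gene SHH had 0, 3, 3 and 1 counts. NOTCH2 stood at 152 ± 5.93 CPM. Of the cytokine, interferon and Toll-like receptors 14 of 27 (51.9%) were expressed, and TLR2, TLR4 and TLR9 had no counts.

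Of 109 listed ligand and antagonist genes 39 (35.8%) were expressed, beside 61.0% of all protein-coding genes. After NOG and RSPO1 the next ligand genes per kb were VEGFB (23.1 ± 1.59 CPM), an endothelial growth factor, and MDK, midkine (16.0 ± 1.25 CPM). Per kb, NOG was 4821 times CHRD, the gene of the related antagonist chordin (19, 34, 22 and 27 counts before scaling by length). Another BMP antagonist gene, GREM1, had 0, 0, 2 and 0 counts. The other R-spondin genes were near background: RSPO2 had 3, 1, 6 and 2 counts, RSPO3 1, 2, 6 and 3, and RSPO4 10, 4, 9 and 2. BMP7 (54.4 ± 1.32 CPM), BMP4 (8.21 ± 1.21 CPM) and WNT5A (67.3 ± 4.05 CPM) were expressed. Among growth factors, VEGFA stood at 31.4 ± 1.89 CPM and FGF2 at 19.8 ± 0.963 CPM. The EGF receptor ligand genes were low, with TGFA at 1.76 ± 0.407 CPM, AREG at 6, 8, 3 and 9 counts and EREG at none.

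Of the listed cancer genes 91 of 97 (93.8%) were expressed, beside 61.0% of all protein-coding genes. Of 48 oncogenes the 2 near background were MYCN (0, 2, 1 and 7 counts) and ANO1, a chloride channel gene beside CCND1 (1, 3, 1 and 2 counts). Per kb the highest were the small GTPase genes RHOA (235 ± 9.37 CPM) and RAC1 (93.0 ± 4.76 CPM), the survival gene MCL1 (67.9 ± 1.19 CPM) and CDK4 (61.0 ± 2.81 CPM), a kinase of the G1 phase, each separated from the next. MYC had 69.6, 70.9, 70.3 and 73.5 CPM. CCND1, cyclin D1, had 89.6, 89.1, 96.5 and 94.1 CPM and per kb was 2.21 times CCND2. CTNNB1, beta-catenin, stood at 657 ± 20.7 CPM and YAP1 at 65.2 ± 2.13 CPM.

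Of 49 tumour suppressors 45 (91.8%) were expressed, beside 61.0% of all protein-coding genes. CDKN2A, which encodes the cell cycle inhibitor p16 and the MDM2 inhibitor ARF and is often deleted in squamous carcinoma, had 224, 218, 221 and 185 CPM, with replicate 4 the lowest. RB1 (78.5 ± 4.23 CPM) and CDKN1A, the cell cycle inhibitor p21 (29.5 ± 0.698 CPM), were expressed. Among the 4 near background were TP63, ZNF750 and the atypical cadherin gene FAT2 (7, 8, 9 and 8 counts). The table counts transcripts and gives no sequence, so mutations in any of these genes were not analysed here.

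Replicate 4 held transcripts that the other vehicle libraries lacked. In it 203 genes that were near background in replicates 1 to 3 reached 30 counts or more, and they summed to 16518 counts, or 0.0806% of the library. The same rule with replicate 1, 2 or 3 in place of replicate 4 gave 0 genes each. Of the 203 genes 146 were pseudogenes (10945 counts) and 50 were protein-coding (4848 counts). Connective tissue genes were the most abundant of the latter, with COL1A2, a collagen I chain, at 7, 5, 1 and 741 counts. HBB, adult beta-globin, had 2, 0, 0 and 203 counts. The amylase gene AMY1A, which is near-identical to its neighbours so that its reads are uncertain, had 3, 0, 2 and 253. The immunoglobulin gene IGHM had 3, 1, 1 and 274 and the calcium-binding protein gene S100A6 2, 1, 2 and 298.

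Over the 7 lists of other cell types the samples could hold, 5 had members more than 3 times higher in replicate 4, and liver and endothelium had none. The 12 fibroblast genes summed to 892 to 1011 counts in replicates 1 to 3 and 3395 in replicate 4, where 6 of them were higher by this rule. The 13 exocrine gland genes summed to 29 to 48 and 815 counts (5 members), the 17 leukocyte genes to 85 to 103 and 556 (6 members) and the 11 erythroid genes to 18 to 22 and 347 (4 members). Of the 15 muscle genes, with 587 to 668 and 1040 counts, 8 were over 3 times higher. Liver genes (4 to 16 and 11 counts) and endothelial genes (170 to 215 and 250 counts) had no such member, and the defining markers ALB, PECAM1 and CDH5 had at most 1 count in replicate 4. Outside these lists, the mesenchymal list had 6 members over 3 times higher, SPARC and CDH11 among them, and no other list had more than 2. For COL1A1, the other collagen I chain, the level was 8.94, 11.4, 8.56 and 51.3 CPM, so its mean rests on replicate 4. The part of these transcripts in the higher NOG and RSPO1 levels of replicate 4 was not tested. KRT5 and KRT4 had no count in replicate 4 either.

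**Figure D4:**
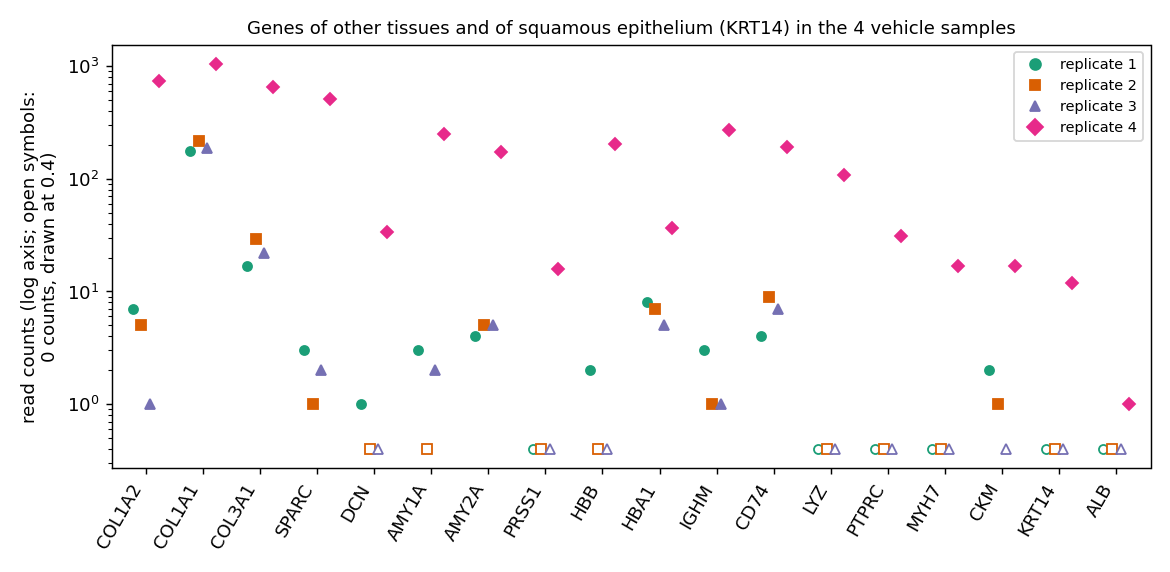
Counts of genes of other tissues, and of the squamous gene KRT14, in the 4 vehicle libraries, on a logarithmic axis with 1 point per library and open points for a count of 0. The replicate 4 points of COL1A2, SPARC, AMY1A and HBB (741, 516, 253 and 203 counts) lie far above the other 3, while ALB has at most 1 count in any library.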

How the data were processed

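The authors deposited 1 table of whole-number read counts for 60591 human gene symbols, with 1 column per library, each matched to 1 sample through its label. Per the labels' protocols, total RNA was purified with a column kit and made into directional libraries. The submitters' processing notes name DESeq, without a version or role, and GRCm38, a mouse build, beside human symbols. The aligner, annotation and handling of strand were not given in the sources used here. Overlapping and antisense genes therefore cannot be told apart with certainty.

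Levels are counts divided by the library total times 1000000 (CPM). Levels per kb divide by the exon union of GENCODE 29, matched by symbol for 56525 genes and all 1008 list members. Other promoter and coordinate data came from RefSeq (GRCh38.p14), not from the authors. Class limits were 1 CPM and 10 counts in each of replicates 1 to 3, and a 0 was read as allowing 3 counts. Alternatives were TMM (edgeR 4.0.16) over 4 or 13 libraries, RLE (DESeq2 1.42.0), totals without mitochondrial genes, limits of 0.5 and 2 CPM and of 3 and 20 counts, all 4 replicates, each replicate left out and the longest transcript. Python 3.11.15 and R 4.3.3 were used, and the class rules were checked on simulated data.

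The 53 gene lists (1008 genes) and the markers were chosen with earlier results of these data known. Named genes were the 9 markers, up to 4 members per list with the highest level per kb among expressed members, defining members near background, both genes of 20 pairs, the 10 most abundant symbols and the 10 genes highest in replicate 4 among those near background in the others. Further list members are named in the text as examples, chosen after their values were seen. Some members are not reported here.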

Additional observations from a re-analysis of the deposited data

Results flagged for a closer look

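Levels of 211 named genes were checked for a library whose gap to its nearest neighbour took up a larger part of the range of the 4 values than Dixon's critical value. By chance about 1 group in 20 passes this limit, and 26 did. In 14 of the 26 replicate 4 was high, and for most of these the genes belong to other tissues or are pseudogenes: TMSB4XP2 (gap 0.997 of the range), EEF1A1P17 (0.997), S100A6 (0.997), SPARC (0.996), IGHM (0.992), COL1A2 (0.991), HBB (0.990), EEF1A1P29 (0.989), AMY1A (0.988), EEF1A1P3 (0.984), AMY2B (0.967), COL1A1 (0.933) and ACTA1 (0.883). The 10 among them that were near background in replicates 1 to 3 were named because replicate 4 was high there, so their gaps follow from the choice. HOXD10 (0.900) was the fourteenth, with a mean of 65.8 ± 3.47 CPM. Replicate 4 was low for CDKN2A (0.839), RAC1 (0.832) and SPINT2 (0.831).

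In the other 9, replicate 1 was high for NR2F2 (0.929) and GATA3 (0.848) and low for POU3F2 (0.865). Replicate 2 was high for NEFM (0.956), CDH22 (0.924) and MAGEA6 (0.903) and low for MSX2 (0.860). Replicate 3 was low for HES1 (0.961) and high for HOXC6 (0.840). These gaps were small in absolute terms where the 4 values lie close together, as for NR2F2 (222, 217, 218 and 218 CPM).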

How the results depend on the processing

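No result reversed under any alternative run. With the limit at 0.5 CPM 4 squamous differentiation genes were expressed in place of 2, and at 2 CPM 3 basal squamous genes in place of 5. The HOX genes near background were 1 with a limit of 3 counts and 5 with 20, in place of 3. Expressed genes of the whole table numbered 16084 at 0.5 CPM, 13324 at 2 CPM and 14550 with all 4 replicates. With the limit of 10 counts applied to all 4 replicates, the near-background genes fell from 5 to 1 in the mesenchymal list, 16 to 8 in the leukocyte, 11 to 4 in the muscle and 7 to 3 in the fibroblast list. At 2 CPM 1 endothelial gene in place of 2 was expressed. TMM over 13 libraries raised levels by a median of 7.20%, and the other scalings by at most 1.75%. Of the 271 named levels, TMM over 13 libraries moved 155 by more than their SD.

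With the longest transcript as length, the log2 ratio was 4.28 for KRT18 to KRT8, 3.65 for VIM to KRT18, -0.31 for NEFL to INA, 0.66 for NEFL to NEFM, 11.79 for NOG to CHRD, 9.37 for CA2 to CA12, -3.41 for EGFR to ERBB2, -0.83 for FGFR1 to FGFR2, -1.83 for GATA3 to GATA2 and 0.72 for IGF2BP1 to IGF2BP2, because only the length changes. Leaving out any 1 replicate kept the main class counts within 1.5 times and the ratios within their spread. Without replicate 1, 2 counts of other lists changed by more than 1.5 times. No paired analysis was possible because the libraries form 1 group.

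Genes of a few counts cannot be told from absent ones at these depths, genes with near-identical copies are uncertain one by one, and means of genes carried by replicate 4, such as COL1A1, AMY2B (1.22 CPM without it, 4.93 with it) and ACTA1 (1.36 and 2.61 CPM), describe that library.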
